A study of Mus musculus with 6 samples.

Results

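The 10 genes described here encode enzymes of the pentose phosphate pathway (G6pdx, Pgd, Rpia, Tkt and Taldo1) and of nucleotide synthesis (Prps1, Cad, Umps, Ctps and Impdh2). They were chosen by name from the 24354 genes of the deposited table, and each name matched a single row. Expression was measured by RNA sequencing in basal epidermal cells sorted for high surface α6 integrin, an adhesion receptor subunit of cells that sit on the basement membrane. The tissue was epidermis of mouse embryos at E18.5, shortly before birth. The mutant group held 3 libraries from epidermis homozygous for Pik3ca H1047R, an activating change in the catalytic subunit of phosphoinositide 3-kinase (PI3K), and the wild-type (WT) group held 3 libraries. All 6 carried the strain label C57BL6, and no treatment was labelled. The promoter or Cre line behind the mutant allele, and the number of embryos behind a library, are not given in the labels. Replicates are therefore separate libraries, and p-values refer to the spread among these libraries, part or all of which may be technical.

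The pentose phosphate pathway oxidises glucose 6-phosphate and yields NADPH, the reductant of lipid synthesis and antioxidant defence, and ribose 5-phosphate, the sugar of nucleotides. Its oxidative branch makes NADPH, and its non-oxidative branch interconverts sugar phosphates and links them back to glycolysis. Ribose 5-phosphate is activated to phosphoribosyl pyrophosphate, on which purine rings are built and to which pyrimidine rings are attached. In cultured mammalian cells, signalling from PI3K through AKT and mTORC1 is known to promote both pathways, and basal keratinocytes are the dividing cells of the epidermis.

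The deposited values are FPKM, in which the fragments of a gene are divided by its transcript length and by a library size. Levels can thus be compared between genes. How the library size was set is not stated in the sources used here. The values summed to between 538627 and 651769 in mutant libraries and to between 656761 and 767148 in WT libraries. The number of reads is unknown. Relative depth was read from genes under 1 FPKM, as the inverse of their most frequent FPKM ratio to WT replicate 1. It was 1.11 to 1.24 for mutant libraries and 0.979 to 1.15 for the other WT libraries. Summed FPKM of 4 spinous keratinocyte markers was 10515 to 13216 in mutant and 2775 to 3515 in WT libraries, and all 4 were called higher. That of 6 basal markers, among them Krt5 and Krt14, was 20155 to 23211 in mutant and 23047 to 23638 in WT libraries. Of these 6, 3 were called lower and 0 higher. The 3 were Itga6, which encodes the α6 integrin used for the sort, Itgb4 and Col17a1. Summed FPKM of 6 dermal fibroblast markers was 303 to 337 in mutant and 369 to 501 in WT libraries, with 1 called lower. Sums were also lower in mutant libraries for 4 leukocyte markers (5.18 to 5.46 against 6.16 to 7.3), with 1 called lower and Cd207 listed at 0 in all libraries, and for 4 melanocyte markers (10.2 to 12.5 against 15 to 20.5), with 2 called lower. The same held for 3 erythroid markers (30.5 to 44.1 against 85.4 to 111) and 3 muscle markers (3.65 to 4.23 against 7.61 to 14.2), with 1 called lower in each list, while 3 endothelial markers summed to 0.488 to 1.4 and 0.947 to 2.02. Their part in the results below was not tested. In bulk RNA, a change in the share of cells and a change in RNA per cell cannot be told apart.

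The comparison asks how the mutant kinase changes the expression of these enzymes. A gene was called when a linear model of log2(FPKM + 1), fitted across the 11385 genes that averaged 1 FPKM or more, gave a Benjamini-Hochberg adjusted p under 0.05 (limma). Of the 10 enzymes, 3 were called higher (G6pdx, Pgd and Cad) and 2 lower (Ctps and Impdh2) in mutant libraries. The whole table had 46.0% of genes called, 23.2% higher and 22.8% lower, so a call on 5 of 10 enzymes lies near the background. The groups did not overlap for the same 5 enzymes, beside 56.0% of all tested genes. The median log2 fold change was 0.07 over the 10 enzymes and 0.01 over all tested genes. When all libraries were brought to the same total FPKM, the median gene moved to a log2 fold change of 0.30. Under this scaling, 86.5% of all called genes were higher, against 50.5% with the values as deposited, and 6 of the 10 enzymes were called higher and 2 lower. The directions given are those of the deposited values. Relative to the median gene, those of the 5 called enzymes kept their sign in every alternative tried.

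**Figure D1:**
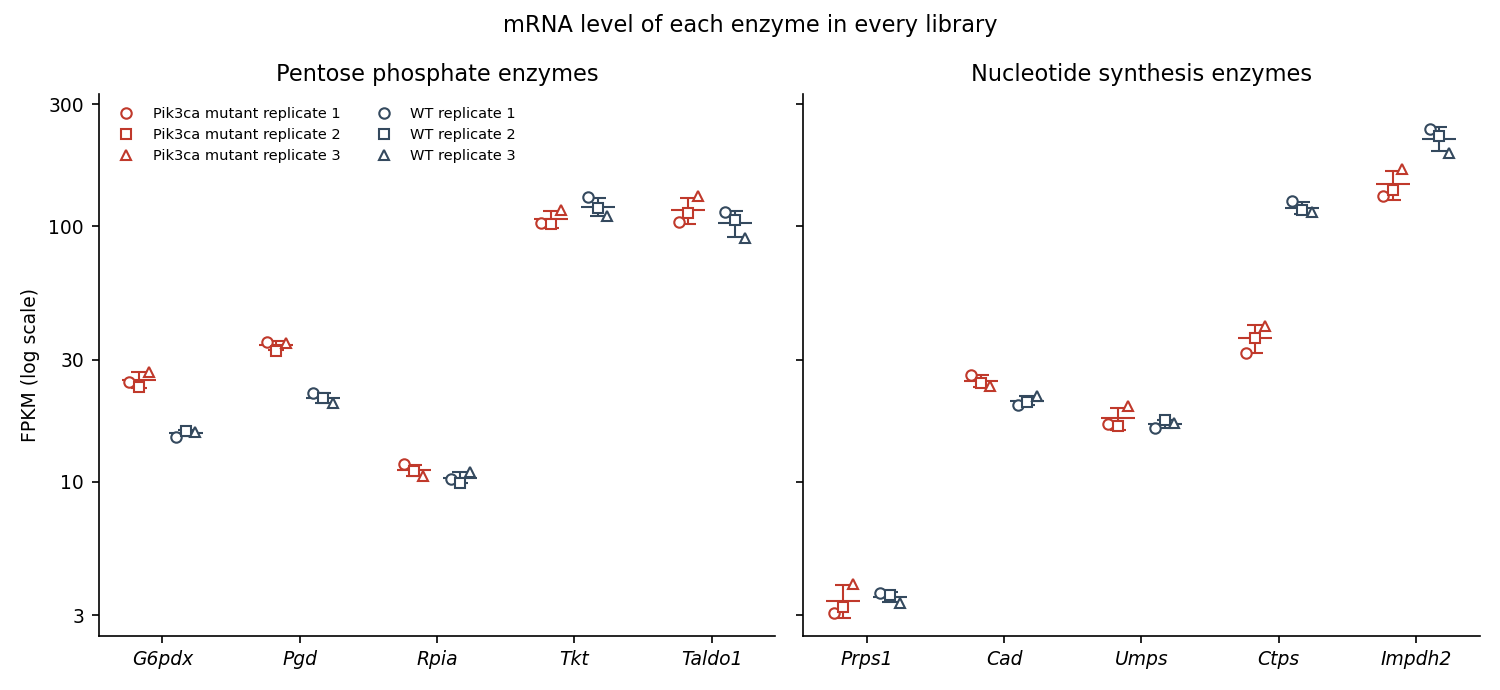
FPKM (log axis) of each enzyme in the 3 mutant and 3 WT libraries, with symbols for replicates, and the mean with SD as a bar. G6pdx and Pgd lie higher in every mutant library, Ctps and Impdh2 lie lower in every mutant library, and Rpia, Tkt, Taldo1, Prps1 and Umps overlap between the groups.

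Of the oxidative branch, the cytosolic NADPH-yielding enzymes G6pdx and Pgd were higher in mutant libraries, while Pgls and H6pd, picked after their values were known, were not called. G6pdx encodes glucose-6-phosphate dehydrogenase, the first and rate-limiting enzyme of the pathway. It stood at 24.6, 23.5 and 27 FPKM in mutant libraries and at 15, 15.9 and 15.6 FPKM in WT libraries. Every mutant value lay above every WT value, and the means were 25 ± 1.8 and 15.5 ± 0.427 FPKM (SD, n = 3 each), a ratio of 1.61. The log2 fold change was 0.66 (SE 0.0662, limma adjusted p = 0.000195). Pgd encodes the dehydrogenase of 6-phosphogluconate that makes the second NADPH and releases ribulose 5-phosphate. It stood at 35.3, 32.5 and 34.8 FPKM in mutant libraries and at 22.2, 21.2 and 20.4 FPKM in WT libraries. Here too the groups did not overlap, and the means of 34.2 ± 1.45 and 21.3 ± 0.911 FPKM (SD, n = 3 each) gave a ratio of 1.61 and a log2 fold change of 0.66 (SE 0.0604, limma adjusted p = 0.000119). Among the 2642 genes called higher, G6pdx and Pgd ranked within the upper 14.9% and 14.3% by log2 fold change. The pair was called higher in all 17 alternatives, with limma adjusted p-values of at most 0.00275 for G6pdx and 0.00228 for Pgd. Pgls, the lactonase between G6pdx and Pgd, stood at 88.1, 85.7 and 106 FPKM in mutant libraries and at 126, 114 and 97.2 FPKM in WT libraries, with overlapping groups (log2 fold change -0.26, limma adjusted p = 0.0927). On the same strand, 20.6% of its exon bases are shared with Fam129c. H6pd, which encodes the glucose-6-phosphate dehydrogenase of the endoplasmic reticulum, was at 2.71 ± 0.0828 FPKM in mutant and 2.68 ± 0.143 FPKM in WT libraries (SD, n = 3 each; log2 fold change 0.01, limma adjusted p = 0.923). Exons of G6pdx, which lies on the X chromosome, share 13.6% of their bases with Ikbkg on the other strand, and the sources used here do not say whether the libraries keep the strand. Ikbkg itself was at 7.16 ± 0.196 FPKM in mutant and 5.71 ± 0.24 FPKM in WT libraries (SD, n = 3 each).

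The 250 bases before the transcription start of both genes are shown, since they moved together with near-equal ratios. The sequences are from RefSeq on GRCm38.p6, 5′ to 3′ on the gene's own strand, and the windows are chrX:74428881-74429130 on the minus strand for G6pdx and chr4:149166706-149166955 on the minus strand for Pgd. Both strands were searched for the E-box CACGTG, the core of the antioxidant response element TGACNNNGC and the ETS core CCGGAAG, and capitals mark a match.
G6pdx: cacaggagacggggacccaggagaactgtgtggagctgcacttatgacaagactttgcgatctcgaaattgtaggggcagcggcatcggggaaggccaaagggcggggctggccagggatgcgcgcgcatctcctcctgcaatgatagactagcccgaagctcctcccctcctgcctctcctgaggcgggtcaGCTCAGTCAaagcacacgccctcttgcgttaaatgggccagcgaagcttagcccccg
Pgd: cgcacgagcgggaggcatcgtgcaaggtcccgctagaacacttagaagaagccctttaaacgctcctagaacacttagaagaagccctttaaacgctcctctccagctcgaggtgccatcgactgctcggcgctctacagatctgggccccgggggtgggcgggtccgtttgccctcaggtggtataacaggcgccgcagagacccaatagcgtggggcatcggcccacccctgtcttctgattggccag
The window of G6pdx held 1 match to the antioxidant response core, on the opposite strand and starting 57 bases before the RefSeq transcription start. In the GENCODE M21 annotation G6pdx starts further upstream, at 74429194, so this window lies within that gene. The window of Pgd, 1 of 2 listed for it, held 0 matches to the 3 motifs. GENCODE M21 also starts Pgd further upstream, at 149166771, so part of this window lies within that gene. Among all 32851 promoter windows of this length, 6.02% held the E-box, 10.2% the antioxidant response core and 6.91% the ETS core.

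The enzymes of the non-oxidative branch were not called. Rpia encodes ribose-5-phosphate isomerase, which turns ribulose 5-phosphate into the sugar used for nucleotides. It stood at 11.7, 11 and 10.6 FPKM in mutant libraries and at 10.3, 9.92 and 10.9 FPKM in WT libraries, and the groups overlapped (log2 fold change 0.09, 95% interval -0.06 to 0.24, limma adjusted p = 0.308). Tkt encodes transketolase, and Taldo1 encodes transaldolase, which move carbon units between sugar phosphates. Tkt stood at 102.4, 101.7 and 116 FPKM in mutant libraries and at 129.7, 118 and 109.9 FPKM in WT libraries, with overlapping groups (log2 fold change -0.16, 95% interval -0.35 to 0.04, limma adjusted p = 0.159). Taldo1 stood at 104, 112 and 130.7 FPKM in mutant libraries and at 114, 105 and 89.6 FPKM in WT libraries, again with overlap (log2 fold change 0.17, 95% interval -0.09 to 0.43, limma adjusted p = 0.253). The upper bounds of these intervals lie below the log2 fold changes of G6pdx and Pgd, while changes of up to 0.43 are within them. Under the same-total scaling Tkt was at 0.17, and Taldo1 (0.50) and Rpia (0.39, limma adjusted p = 0.0403) were called higher, against a median gene of 0.30.

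**Figure D2:**
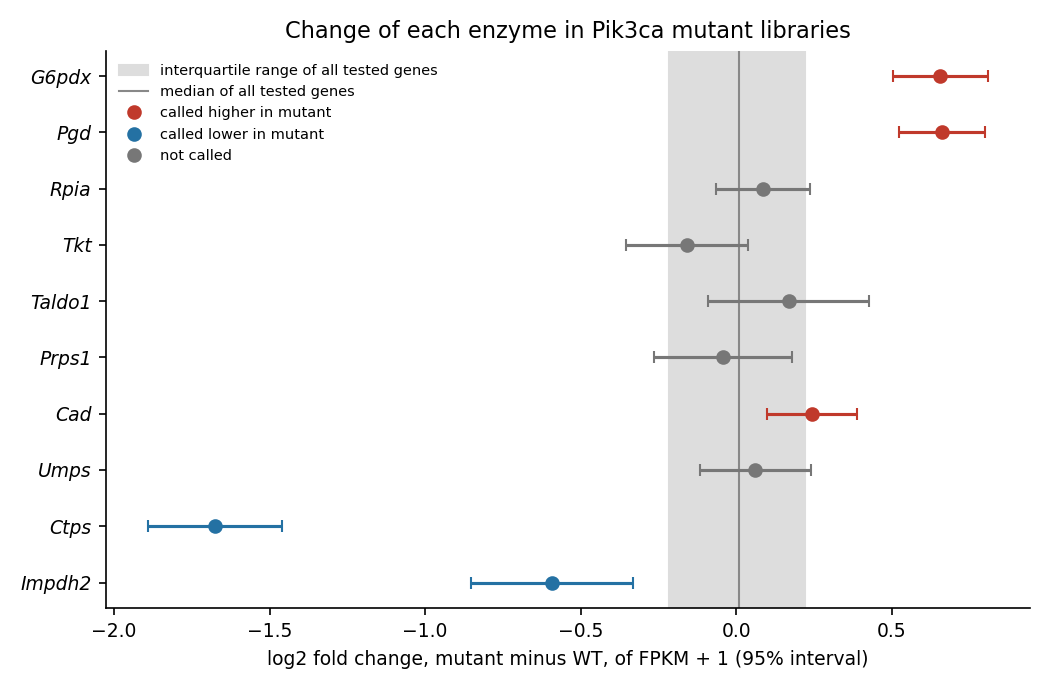
Log2 fold change of FPKM + 1 (mutant minus WT) with its 95% interval for each enzyme, coloured by call, with the median of all tested genes at 0.01 and their interquartile range from -0.22 to 0.22. G6pdx, Pgd, Ctps and Impdh2 have intervals outside that band, while the interval of Cad (0.10 to 0.39) reaches into it.

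Ratios of 2 enzymes within a library do not depend on how libraries were scaled to each other. The ratio of G6pdx to Tkt FPKM was 0.24, 0.231 and 0.233 in mutant libraries and 0.116, 0.134 and 0.142 in WT libraries. It was thus higher in each mutant library than in any WT library, by 1.80-fold on the mean of the logs (two-sided exact permutation p = 0.1, the smallest that 3 against 3 allows). The ratio of Pgd to Taldo1 was 0.339, 0.29 and 0.266 in mutant libraries and 0.196, 0.201 and 0.228 in WT libraries, 1.43-fold higher without overlap (exact permutation p = 0.1). The fold gap between the groups in G6pdx and in Pgd was larger than the fold range of Tkt and of Taldo1, respectively, over all libraries. Neither ratio could therefore overlap, so these p-values add no evidence beyond the values of G6pdx and Pgd. No ratio to Rpia was computed.

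Ctps showed the largest change of the 10 enzymes. It encodes CTP synthase, which aminates UTP to CTP, the last step of pyrimidine nucleotide synthesis. Ctps stood at 31.8, 36.6 and 40.8 FPKM in mutant libraries and at 125, 115 and 113.5 FPKM in WT libraries. Every mutant value was far below every WT value, and the means of 36.4 ± 4.49 and 118 ± 6.44 FPKM (SD, n = 3 each) differed 3.24-fold. The log2 fold change was -1.67 (SE 0.0934, limma adjusted p = 1.25e-05), which ranked Ctps as number 66 among the 2592 genes called lower. The authors' intervals around the single values did not overlap between the groups either, with a highest upper bound of 54 FPKM in mutant libraries and a lowest lower bound of 71.1 FPKM in WT libraries. Ctps was the only one of the 10 for which this held. It was called lower in all 17 alternatives, with log2 fold changes from -1.76 to -1.35.

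Ctps2, the isoenzyme that makes CTP by the same reaction, was far lower in level and did not pass the test. It stood at 2.62, 2.73 and 2.73 FPKM in mutant libraries and at 3, 3.14 and 2.85 FPKM in WT libraries (log2 fold change -0.11, limma adjusted p = 0.25). Each mutant value of Ctps2 lay below each WT value, the same direction as Ctps, by a small margin. Ctps exceeded Ctps2 by 12.1-, 13.4- and 15-fold in mutant libraries and by 41.9-, 36.6- and 39.8-fold in WT libraries, with no overlap (exact permutation p = 0.1). The fold gap between the groups in Ctps was far larger than the fold range of Ctps2. This ratio could therefore not overlap, so its p-value adds no evidence. The summed FPKM of both genes was 39.1 ± 4.54 in mutant and 121 ± 6.46 in WT libraries (SD, n = 3 each). Total CTP synthase mRNA was thus 3.09-fold lower in mutant libraries, close to the difference of Ctps alone.

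Impdh2 encodes inosine monophosphate dehydrogenase, which commits the purine precursor IMP to guanine nucleotides. It stood at 131, 139 and 167 FPKM in mutant libraries and at 239.5, 226 and 194 FPKM in WT libraries. The groups did not overlap, but mutant replicate 3 and WT replicate 3 came close. The means were 146 ± 18.6 and 219.8 ± 23.4 FPKM (SD, n = 3 each), 33.8% lower in mutant libraries (log2 fold change -0.59, SE 0.113, limma adjusted p = 0.00394). Impdh2 was called lower in all 17 alternatives. Its log2 fold change was -0.26 under the same-total scaling and -0.29 under quantile normalization. A neighbour on the other strand, Ndufaf3, shares 1.56% of the exon bases of Impdh2.

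The isoenzyme Impdh1 moved the other way. It stood at 6.35, 5.8 and 6.33 FPKM in mutant libraries and at 4.74, 4.82 and 4.72 FPKM in WT libraries, higher in each mutant library (log2 fold change 0.31, limma adjusted p = 0.00598). The ratio of Impdh2 to Impdh1 was 20.7, 23.9 and 26.3 in mutant libraries and 50.6, 46.8 and 41 in WT libraries, 1.96-fold lower in mutant libraries without overlap (exact permutation p = 0.1). With both genes already apart in opposite directions, this ratio could not overlap, so its p-value adds no evidence. Since Impdh2 supplied most of the mRNA in both groups, their sum was 152 ± 18.7 FPKM in mutant and 225 ± 23.4 FPKM in WT libraries (SD, n = 3 each).

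Cad encodes the multifunctional protein that starts pyrimidine ring synthesis from glutamine and bicarbonate, and a known substrate of mTORC1-dependent phosphorylation. It stood at 26.2, 24.3 and 23.7 FPKM in mutant libraries and at 20, 20.6 and 21.7 FPKM in WT libraries. All mutant values were above all WT values, but the difference was small, with means of 24.8 ± 1.28 and 20.8 ± 0.859 FPKM (SD, n = 3 each), a ratio of 1.19 and a log2 fold change of 0.24 (SE 0.0622, limma adjusted p = 0.0143). Leaving out mutant replicate 1 (adjusted p = 0.0563), WT replicate 1 (0.0514) or WT replicate 2 (0.0516) ended the call of Cad in limma. Umps encodes the enzyme that completes UMP downstream of Cad. It stood at 16.8, 16.5 and 19.8 FPKM in mutant libraries and at 16.2, 17.4 and 17 FPKM in WT libraries, and the groups overlapped (log2 fold change 0.06, 95% interval -0.12 to 0.24, limma adjusted p = 0.545). The ratio of Cad to Umps overlapped between the groups (exact permutation p = 0.3). That of Cad to Impdh2 was 0.199, 0.176 and 0.142 in mutant libraries and 0.0835, 0.0911 and 0.112 in WT libraries, 1.80-fold higher in mutant libraries (exact permutation p = 0.1). With Cad higher and Impdh2 lower in every mutant library, this ratio could not overlap, so its p-value adds no evidence.

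Prps1 encodes phosphoribosyl pyrophosphate synthetase, the step between both pathways, and had the lowest level of the 10. It stood at 3.06, 3.23 and 4 FPKM in mutant libraries and at 3.67, 3.61 and 3.35 FPKM in WT libraries, with overlap (log2 fold change -0.04, 95% interval -0.27 to 0.18, limma adjusted p = 0.74). Its isoenzyme Prps2 was several times higher, at 16.8 ± 1.02 FPKM in mutant and 15.7 ± 0.859 FPKM in WT libraries (SD, n = 3 each), and was not called (limma adjusted p = 0.299). Their ratio overlapped between the groups (exact permutation p = 0.2).

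**Figure D3:**
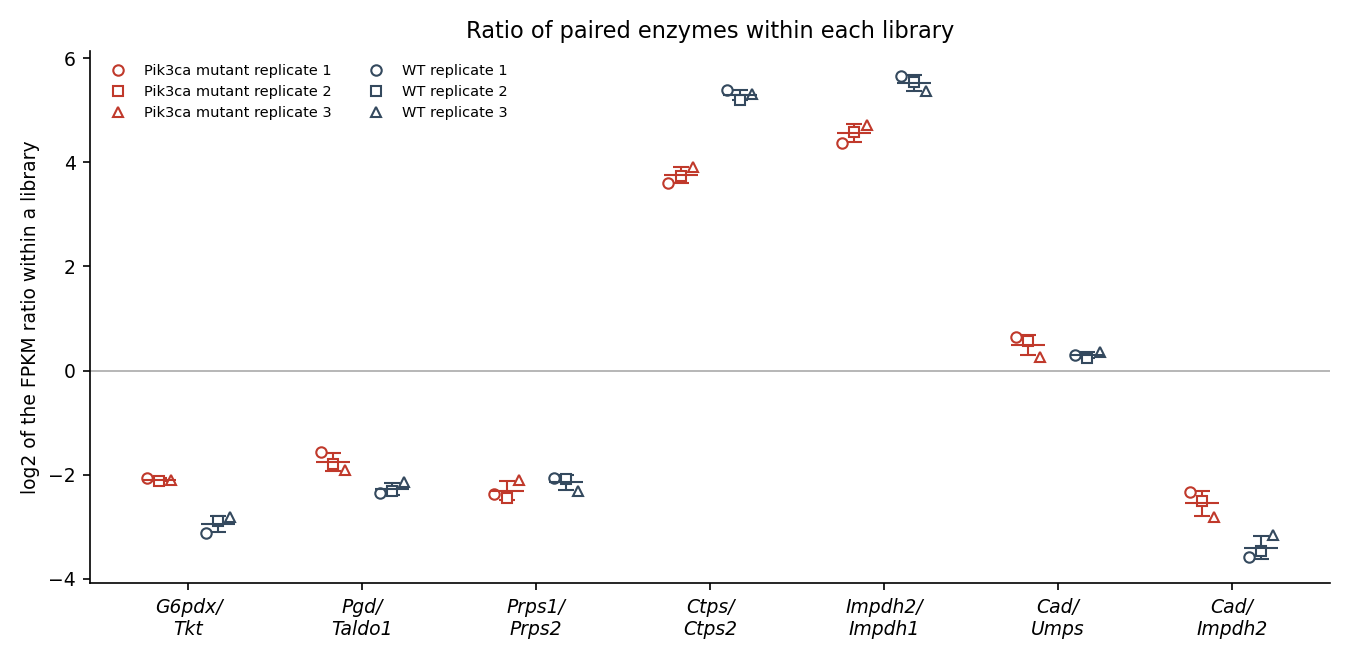
Log2 of the FPKM ratio of 7 enzyme pairs within each of the 3 mutant and 3 WT libraries, with the mean and SD of each group. The ratios of G6pdx to Tkt, Pgd to Taldo1 and Cad to Impdh2 are higher in every mutant library, those of Ctps to Ctps2 and Impdh2 to Impdh1 are lower, and those of Prps1 to Prps2 and Cad to Umps overlap.

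The promoters of the nucleotide enzymes that were called are shown for comparison with those of G6pdx and Pgd, from the same source and with the same motifs in capitals. The windows are chr4:120570277-120570526 on the minus strand for Ctps, chr9:108560186-108560435 on the plus strand for Impdh2 and chr5:31054530-31054779 on the plus strand for Cad.
Ctps: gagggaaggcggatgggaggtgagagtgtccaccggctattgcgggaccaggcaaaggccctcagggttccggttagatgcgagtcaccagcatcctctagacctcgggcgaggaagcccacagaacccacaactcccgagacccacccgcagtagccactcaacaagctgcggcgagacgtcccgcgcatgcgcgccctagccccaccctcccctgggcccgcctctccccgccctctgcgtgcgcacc
Impdh2: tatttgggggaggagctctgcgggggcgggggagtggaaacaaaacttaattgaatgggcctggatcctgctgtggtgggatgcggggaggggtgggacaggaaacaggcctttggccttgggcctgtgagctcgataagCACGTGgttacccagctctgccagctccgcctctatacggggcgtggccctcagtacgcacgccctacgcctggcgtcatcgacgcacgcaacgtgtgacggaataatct
Cad: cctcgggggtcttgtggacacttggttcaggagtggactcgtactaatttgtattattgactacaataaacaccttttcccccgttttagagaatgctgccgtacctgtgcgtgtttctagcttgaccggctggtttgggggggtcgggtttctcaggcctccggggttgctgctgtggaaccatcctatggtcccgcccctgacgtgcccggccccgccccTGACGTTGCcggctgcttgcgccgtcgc
Impdh2 held 1 E-box, starting 110 bases before the RefSeq transcription start, and Cad held 1 match to the antioxidant response core, starting 28 bases before it. GENCODE M21 starts Impdh2 further upstream, at 108560286, so the E-box lies within that gene. Ctps held 0 matches, in a window of 67.6% G and C, 1 of 2 listed for it.

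The order of levels among the 10 enzymes differed between the groups. G6pdx ranked above Umps in mutant libraries and below it in WT libraries, with no overlap of the pair in either group. In mutant libraries Impdh2 was highest, followed by Taldo1 and Tkt, whose ranges overlapped, and then by Ctps and Pgd, whose ranges also overlapped. In WT libraries Impdh2 was followed by Tkt, Ctps and Taldo1, each overlapping the next. Below these came G6pdx and Cad, with overlapping ranges, then Umps, Rpia and Prps1 in mutant libraries, and Pgd and Cad, with overlapping ranges, then Umps, G6pdx, Rpia and Prps1 in WT libraries. The highest and lowest means, those of Impdh2 and Prps1, differed 42.5-fold in mutant and 62-fold in WT libraries. The spread between libraries of a group, as a coefficient of variation, ran from 4.25% (Pgd) to 14.6% (Prps1) in mutant libraries and from 2.76% (G6pdx) to 11.9% (Taldo1) in WT libraries. Mutant replicate 3 gave the highest mutant value for 7 of the 10 enzymes, and it also had the largest summed FPKM of the mutant libraries. WT replicate 3 gave the lowest WT value for 6 of the 10, and it had the smallest summed FPKM of the WT libraries.

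The other genes of these pathways were called in both directions within every list. The 8 further lists held 96 genes, of which 83 reached the minimum level, and of these 22 were called higher and 14 lower, 43.4% against the background of 46.0%. Their median log2 fold change was 0.03. Under the same-total scaling 47 were called higher and 5 lower.

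Of 5 other pentose phosphate genes tested, 1 was called higher and 1 lower, and Tktl1, Tktl2, Shpk and Rbks stayed under the minimum level. Tigar, whose product slows glycolysis and favours the pentose phosphate pathway, stood at 4.64, 4.16 and 4.49 FPKM in mutant libraries and at 1.76, 2.35 and 2.36 FPKM in WT libraries, 2.05-fold higher (log2 fold change 0.79, limma adjusted p = 0.000598). Dera, the deoxyribose-phosphate aldolase, stood at 16.6, 17.1 and 19.1 FPKM in mutant libraries and at 30.4, 30.1 and 26.1 FPKM in WT libraries (log2 fold change -0.68, limma adjusted p = 0.000426). Neither gene's groups overlapped.

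Of 7 tested genes that supply NADPH by other routes or its precursor, 2 were called higher and 1 lower. Nadk, the cytosolic kinase that makes NADP from NAD, stood at 36.5, 36 and 38.4 FPKM in mutant libraries and at 22.6, 24.5 and 22.1 FPKM in WT libraries (log2 fold change 0.66, limma adjusted p = 0.000135). Idh1, the cytosolic NADP-dependent isocitrate dehydrogenase, stood at 40.8, 48.5 and 45.5 FPKM in mutant libraries and at 29.7, 29.6 and 28.1 FPKM in WT libraries (log2 fold change 0.60, limma adjusted p = 0.000466). Both were higher in every mutant library, with ratios of 1.60 and 1.54 beside the 1.61 of G6pdx and Pgd. Its mitochondrial counterpart Idh2 was lower, at 136 ± 14.4 FPKM in mutant and 168 ± 9.67 FPKM in WT libraries (SD, n = 3 each; log2 fold change -0.31, limma adjusted p = 0.0228). Me1, the cytosolic malic enzyme and a further NADPH source, was picked after its values were known and stood at 9.1 ± 0.94 FPKM in mutant and 9.46 ± 1.28 FPKM in WT libraries (SD, n = 3 each; limma adjusted p = 0.738).

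**Figure D4:**
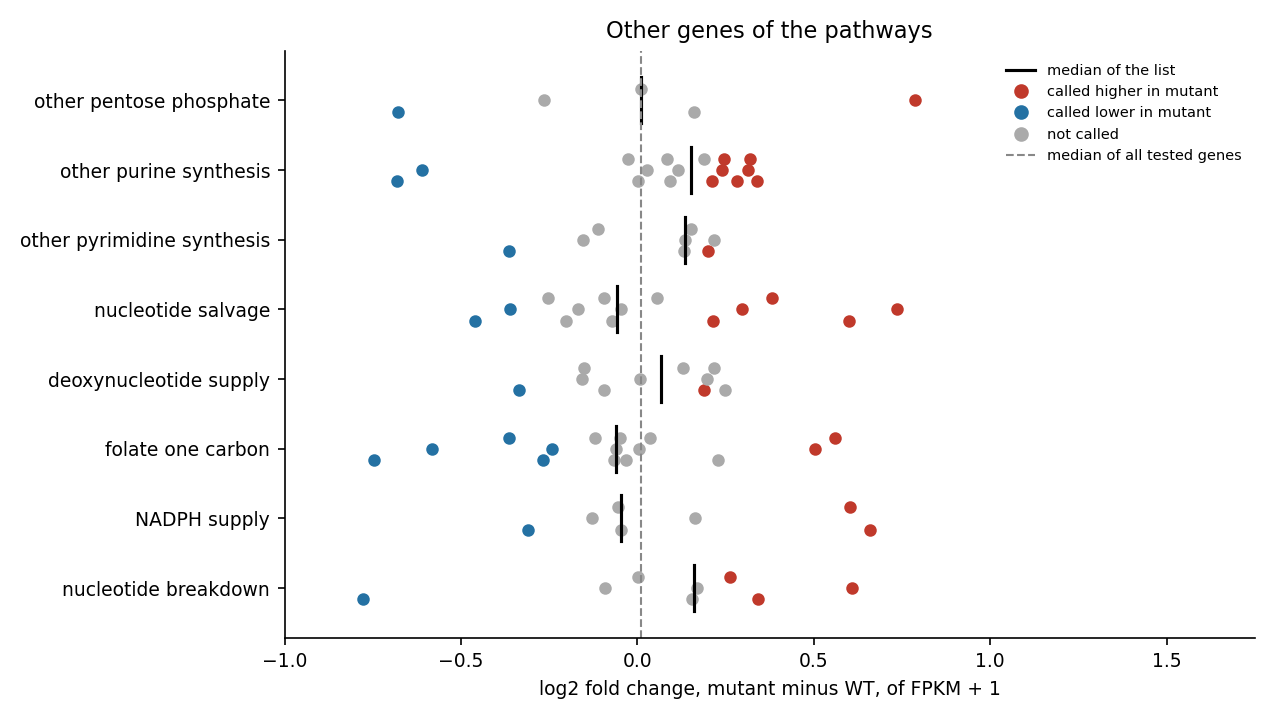
Log2 fold change of FPKM + 1 (mutant minus WT) of the 83 tested genes of 8 further lists, each point 1 gene coloured by call, with the median of each list as a black line. Every list holds genes called in both directions, and the list medians lie between -0.06 and 0.16, beside 0.01 for all tested genes.

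Of 16 other purine synthesis genes, 7 were called higher and 2 lower, with a median log2 fold change of 0.15. Adss, which commits IMP to adenine nucleotides and thus stands opposite Impdh2 at the branch, stood at 31.9, 33.6 and 36.1 FPKM in mutant libraries and at 58.4, 53.9 and 52.8 FPKM in WT libraries (log2 fold change -0.68, limma adjusted p = 0.00019). Paics, which acts in the middle of purine ring synthesis, stood at 74.6, 81.6 and 89.7 FPKM in mutant libraries and at 132, 129.5 and 115 FPKM in WT libraries (log2 fold change -0.61, limma adjusted p = 0.00102). Neither overlapped between the groups. Gart, which carries several steps of the same pathway, was higher, at 45.8 ± 1.37 FPKM in mutant and 37.5 ± 0.212 FPKM in WT libraries (SD, n = 3 each; log2 fold change 0.28, limma adjusted p = 0.0036), and 19.7% of its exon bases are shared with an antisense transcript. The exons of Paics share 8.67% of their bases with Ppat on the other strand.

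Of 8 other pyrimidine synthesis genes tested, 1 was called in each direction. Dhodh, the mitochondrial enzyme between Cad and Umps, was at 8.51 ± 0.581 FPKM in mutant and 7.28 ± 0.297 FPKM in WT libraries (SD, n = 3 each; log2 fold change 0.20, limma adjusted p = 0.0478). Nme2, a nucleoside diphosphate kinase, was at 385 ± 51.3 FPKM in mutant and 496 ± 61.1 FPKM in WT libraries (SD, n = 3 each; log2 fold change -0.37, limma adjusted p = 0.0453), with overlapping groups. Its value is uncertain, since Nme1 is a close copy and the annotated gene Gm20390 shares exons with both.

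Of 14 salvage genes tested, which recycle bases and nucleosides, 5 were called higher and 2 lower. Uck2, the uridine and cytidine kinase that makes pyrimidine nucleotides by salvage, stood at 89.8, 86.7 and 92.9 FPKM in mutant libraries and at 56.6, 51.4 and 52.7 FPKM in WT libraries. Every mutant library was above every WT library, by 1.68-fold (log2 fold change 0.74, limma adjusted p = 8.05e-05). The related Uckl1 was lower, at 7.83 ± 0.38 FPKM in mutant and 10.3 ± 0.58 FPKM in WT libraries (SD, n = 3 each; log2 fold change -0.36, limma adjusted p = 0.00347). Dck, the deoxycytidine kinase, was at 17.3 ± 0.786 FPKM in mutant and 13 ± 0.557 FPKM in WT libraries (SD, n = 3 each; log2 fold change 0.38, limma adjusted p = 0.00187). Uprt, a uracil phosphoribosyltransferase homologue, was at 3.76 ± 0.811 FPKM in mutant and 2.12 ± 0.334 FPKM in WT libraries (SD, n = 3 each; log2 fold change 0.60, limma adjusted p = 0.00973).

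Of 10 genes that supply deoxynucleotides to DNA synthesis, 1 was called higher and 1 lower, beside the background of 46.0%. Samhd1, which degrades deoxynucleotides, was the higher one (log2 fold change 0.19, limma adjusted p = 0.0288), and Dut, the dUTPase, was the lower one (log2 fold change -0.33, limma adjusted p = 0.0456). The ribonucleotide reductase subunit Rrm1, also picked after its values were known, stood at 70.4 ± 5.16 FPKM in mutant and 70.01 ± 2.84 FPKM in WT libraries (SD, n = 3 each). The subunits Rrm2 (log2 fold change 0.20, limma adjusted p = 0.0546) and Rrm2b (0.25, limma adjusted p = 0.0749) were higher in every mutant library but were not called. Beside these, 6 markers of cycling cells summed to 527 to 603 FPKM in mutant and 555 to 620.2 FPKM in WT libraries, with overlap, and 2 were called higher (Mki67 and Ccnb1) and 1 lower (Pcna).

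Of 15 genes of folate and one-carbon metabolism, which supplies carbon for purine rings, 2 were called higher and 5 lower. Mthfd2, the mitochondrial methylenetetrahydrofolate dehydrogenase, stood at 8.3, 8.33 and 9.11 FPKM in mutant libraries and at 16.3, 17.6 and 11.9 FPKM in WT libraries (log2 fold change -0.75, limma adjusted p = 0.00248). The cytosolic serine hydroxymethyltransferase Shmt1 (log2 fold change -0.36) and the folate hydrolase Ggh (-0.58) were lower as well, and the mitochondrial folate carrier Slc25a32 was higher (0.56). Of 8 breakdown genes tested, 3 were called higher and 1 lower. The AMP deaminase Ampd3 (log2 fold change 0.61), the nucleotidase Nt5c (0.34) and the xanthine dehydrogenase Xdh (0.26) were higher, and the surface nucleotidase Nt5e was lower, at 0.862 ± 0.275 FPKM in mutant and 2.19 ± 0.466 FPKM in WT libraries (SD, n = 3 each; log2 fold change -0.78, limma adjusted p = 0.00408).

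Profiles over the 6 libraries were compared by Euclidean distance of log2(FPKM + 1) centred on each gene's mean. Small RNA genes, predicted genes and genes with clone names were left out. The remaining tested genes nearest to G6pdx were Bdh1 (distance 0.0585, log2 fold change 0.67), Mid1ip1 (0.0723, log2 fold change 0.69) and Plk1 (0.0772, log2 fold change 0.65). Those nearest to Cad were Nom1 (distance 0.0403, log2 fold change 0.26), Dpp9 (0.0424, log2 fold change 0.22) and Tmem127 (0.0444, log2 fold change 0.22). The libraries form 2 groups, so genes with a like difference between them are near each other in this measure by construction.

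**Figure D5:**
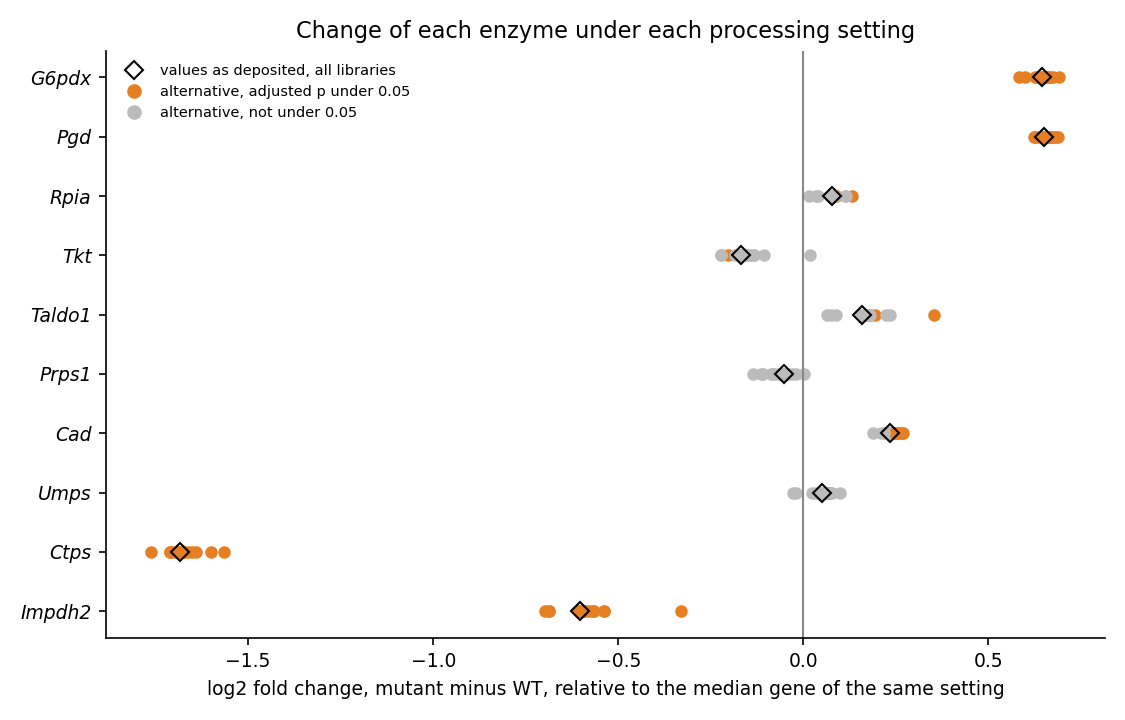
Log2 fold change (mutant minus WT) of each enzyme relative to the median gene of the same setting, for the values as deposited (diamonds) and for the alternatives (points, orange where the adjusted p is under 0.05). G6pdx, Pgd, Ctps and Impdh2 stay on their side of the median gene and called throughout, and Cad stays on its side, with relative values from 0.19 to 0.27.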

How the data were processed

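The authors deposited FPKM values per gene and library, each with an interval and a status, per the file headers. They aligned reads with TopHat and quantified them with Cufflinks, per the submitters' processing notes, which name the build mm9. All 10 enzymes, and 99.3% of the 23211 symbols found, overlapped the gene of that name in GENCODE M21 (GRCm38), so positions are read as GRCm38. The sources used here do not say how the libraries were scaled. FPKM cannot give a count test, and depth in reads is unknown.

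All 6 libraries entered limma 3.58.1 in R 4.3.3 (linear model, empirical Bayes with a trend, two-sided) on log2(FPKM + 1). The 11385 genes that averaged 1 FPKM or more were tested, with Benjamini-Hochberg adjustment over all of them. The pseudocount understates the change of low genes. Ratios in the text are of mean FPKM. The procedure was also run on simulated data with few changed genes and no scaling difference between libraries. That run cannot speak to data with many called genes or to the scaling. Exact permutation tests, promoter searches and figures used Python 3.11.15. The enzymes and lists were chosen with earlier results of these data known. Named genes were the 10 enzymes, up to 4 called genes of each list by smallest p, or the most abundant where fewer than 2 were called, and the nearest profiles. Pgm2 was left out of its list, since its row covers the gene that GENCODE names Pgm1. Alternatives covered the pseudocount, the filter, 4 scalings, the variance prior, library weights, a replicate block and leaving out each library.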

Additional observations from a re-analysis of the deposited data

How the results depend on the processing

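G6pdx, Pgd, Ctps and Impdh2 were called in the same direction under all 17 alternatives. Prps1 was called in 0 of the 16 that tested it, and lies under the stricter filter of 5 FPKM. With each library at the same total FPKM, 5375 genes were called higher and 842 lower, the enzymes gave 6 higher, and other pathway genes gave 47 higher and 5 lower; Taldo1 (0.50, adjusted p = 0.000875), Rpia (0.39, 0.0403) and Umps (0.37, 0.0125) were called higher, and Tkt (0.17) and Prps1 (0.21) changed sign without a call. With small RNAs and ribosomal proteins left out of that total, the counts were 4706 and 1262, 5 enzymes, and 44 and 7; Taldo1 (0.38) and Umps (0.26) were called, and Tkt (0.0541) and Prps1 (0.12) changed sign. The median gene was then at 0.20. Under quantile normalization Taldo1 was called (0.39, adjusted p = 0.00434) and Tkt changed sign (0.0523). With library weights, Tkt (-0.20, adjusted p = 0.0122) and Rpia (0.13, 0.0456) were called, Umps changed sign (-0.026), and 25 other pathway genes were lower. The cause of these changes was not tested.

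Leaving out 1 library gave log2 fold changes of Cad from 0.20 to 0.27 and adjusted p-values from 0.0147 to 0.0563, of Prps1 from -0.13 to 0.0176 (without mutant replicate 1) and of Umps from -0.016 (without mutant replicate 3) to 0.11. Taldo1 ranged from 0.07 (without WT replicate 3; 0.08 without mutant replicate 3) to 0.24, Tkt from -0.22 to -0.10 (without WT replicate 1) and Rpia from 0.05 (without mutant replicate 1; 0.06 without WT replicate 2) to 0.12, none of them called. It gave 13 to 15 other pathway genes higher, the lowest without mutant replicate 1, and 9 to 18 lower, with 9 without mutant replicate 1 or 2 or WT replicate 1 or 2. The replicate numbers were not taken as pairs in the main fit, since the labels give genotype as the only factor. Deviations from the group means correlated at 0.127, 0.122 and -0.007 for same-numbered libraries, against -0.157 to 0.062 for the others. Of the 3 mutant libraries, 2 correlated best with their own number. These values do not settle whether the libraries are paired. With the number as a replicate block, Cad (0.24) was no longer called (adjusted p = 0.0634), 12 other pathway genes were higher and 9 lower, and no other enzyme changed its call. All 7 enzyme ratios kept their direction under a pseudocount of 1, where that of G6pdx to Tkt was 0.81 against 0.85 on the log2 scale. Of the 10 enzymes, Prps1 had the widest of the authors' intervals, up to 48.1% of the value on either side.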
